A study of Mus musculus with 36 samples.

Results

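Fc receptors bind the constant part of antibodies, and 8 mouse genes of this family were followed while B cells were converted into macrophages. They are the activating IgG receptor genes Fcgr1, Fcgr3 and Fcgr4, the shared signalling chain gene Fcer1g, the inhibitory IgG receptor gene Fcgr2b, and the B lineage genes Fcrla, Fcrl1 and Fcer2a. These 8 genes were taken by symbol from the 40354 genes of the count tables, with earlier results of these data known. All 8 were present in the counts and 7 of 8 in the deposited log2 tables, where Fcer2a was not listed.

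The cells were B cells from the bone marrow of C57BL/6J mice that had been infected with a retrovirus encoding C/EBPα fused to the estrogen receptor, together with a human CD4 tag used to enrich infected cells. Every group carried such a construct and differed only in its arginine at the position named in the label, which was intact (WT), replaced by alanine (R35A) or replaced by lysine (R35K). Cells grew on inactivated embryonic fibroblast feeders with IL-7, IL-3, FLT-3, CSF-1 and SCF, estradiol was added to bring the fusion protein into the nucleus, and feeders were removed by adherence before RNA was taken. Poly(A) RNA was sequenced at 6 times from 0 to 120 hours post induction (hpi; the others were 1, 3, 6 and 18), with 2 replicates for each of the 18 groups of construct and time. The 0 hpi cells therefore already carried the construct, and an Fc blocking antibody had been used when the cells were purified. Per the study's methods, medium changes every 2 days left out IL-7. At 120 hpi, time and the absence of added IL-7 therefore cannot be told apart. Induced conversion of this kind is a model in culture and was not followed in an animal. The study calls the replicates biological, but the labels do not tie them to separate animals, so p-values measure the spread between these samples. This spread was small: beyond counting error, the common coefficient of variation between replicates was 3.17% to 3.49% in the fits used below. Whether it covers the spread between animals cannot be told.

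Activating Fc receptors let phagocytes take up antibody-coated particles. They assemble with the Fcer1g product, the γ chain, whose ITAM is phosphorylated by Src-family kinases and recruits the kinase Syk. The Fcgr2b product instead carries an ITIM, recruits the phosphatase SHIP encoded by Inpp5d, and is the classical IgG receptor of B cells, where it dampens the B cell receptor. Macrophages carry both kinds, so that their response to immune complexes depends on the balance between them.

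The 36 libraries held 13044456 to 23131776 counts each, with a median of 15471229.5. Levels are given as CPM (a gene's count relative to its library's total) after TMM scaling over all 36 libraries, as mean ± SD of 2 replicates. A change was called when it reached 1.5-fold and its p in edgeR's quasi-likelihood test, adjusted by Benjamini-Hochberg, did not exceed 0.05. B cell markers (10 genes, Pax5 and Ebf1 among them) summed to 3754 to 4119 CPM at 0 hpi and to 130 to 197 CPM at 120 hpi. Mature B cell markers (6 genes) went the other way, from between 156 and 171 CPM to between 730 and 1000 CPM. Plasma cell markers (4 genes) rose from between 251 and 260 CPM to between 453 and 671 CPM. The part of single genes in these sums was not tested. Macrophage markers (9 genes, Csf1r and Lyz2 among them) went from between 69.8 and 77.4 CPM to between 20987 and 32796 CPM. Fibroblast markers (7 genes, Col1a1 among them) summed to 1016 to 1104 CPM at 0 hpi, 1445 to 2630 CPM from 1 to 18 hpi, and 108 to 415 CPM at 120 hpi, so RNA of feeder cells was present. All 7 fibroblast markers were above 0 in every group before 120 hpi, and Lum was at 0 at 120 hpi. The part of feeder RNA in the values below was not tested. In bulk RNA, fewer cells of a type and less RNA per cell cannot be told apart.

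On chromosome 1, 5 of the genes lie together. In mm10 with GENCODE vM21, Fcrla (chr1:170917576-170927583, minus strand), Fcgr2b (chr1:170958617-170976547, minus), Fcgr4 (chr1:171018920-171029761, plus), Fcgr3 (chr1:171051174-171064935, minus) and Fcer1g (chr1:171229572-171234365, minus) span 316.8 kb. There are 7 other protein-coding genes between Fcgr3 and Fcer1g. Fcrl1 (chr3:87376387-87402934, plus) and Fcgr1 (chr3:96282909-96293969, minus) lie on chromosome 3, and Fcer2a (chr8:3681737-3694175, minus) lies on chromosome 8. A gene's count covers all its exons, so the B cell and macrophage splice forms of Fcgr2b were not separated. Of the distinct 50-base stretches in Fcgr3 transcripts, 9.58% also occur in Fcgr2b, and 6.95% of those in Fcgr2b occur in Fcgr3, Cplx2 or the antisense gene Gm38204, which overlaps Fcgr2b. Reads from these stretches could not be assigned by sequence alone, and the strand setting of the counting is not given in the sources used here. Fcgr1, Fcgr4, Fcer1g, Fcrla and Fcrl1 shared no such stretch with another gene.

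The promoters of these genes are shown because genes that rose together and genes that fell shared 1 short element. PU.1, an Ets factor of both B cells and macrophages, binds a purine-rich element often written GAGGAA, which reads TTCCTC on the other strand. Within the 60 bases before a RefSeq start, TTCCTC on the coding strand was present in 5 of the 8 genes, against 3.06% (1005 of 32851) of all RefSeq promoters of the build. It stood there in Fcgr1, Fcgr3 and Fcgr4, which rose, and also in Fcrla, which fell, and Fcrl1, which fell and later rose. It was not in that window of Fcer1g, Fcgr2b or Fcer2a. The window and strand were chosen after the sequences had been seen, so the share is a description. Below are the 70 bases before and 10 after the start, 5′ to 3′ on the coding strand, in GRCm38.p6 from RefSeq, with the element in capitals (in Fcgr3 also a C/EBP-like element, TTGCNNAA read on the opposite strand).
Fcgr1, chr3:96293960-96294039, minus: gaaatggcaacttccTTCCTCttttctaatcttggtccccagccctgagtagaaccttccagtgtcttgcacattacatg
Fcgr3, chr1:171059385-171059464, minus: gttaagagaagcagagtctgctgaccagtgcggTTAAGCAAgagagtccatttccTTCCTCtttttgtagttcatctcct
Fcgr4, chr1:171018856-171018935, plus: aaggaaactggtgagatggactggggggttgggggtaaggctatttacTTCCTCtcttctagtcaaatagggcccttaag
Fcrla, chr1:170927574-170927653, minus: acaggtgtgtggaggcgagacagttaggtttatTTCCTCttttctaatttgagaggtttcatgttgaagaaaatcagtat
Fcrl1, chr3:87376317-87376396, plus: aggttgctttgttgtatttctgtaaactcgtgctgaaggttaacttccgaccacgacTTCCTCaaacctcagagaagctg
Fcer1g, chr1:171234340-171234419, minus: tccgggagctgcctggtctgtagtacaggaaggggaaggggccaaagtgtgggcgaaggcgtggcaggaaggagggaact
Fcgr2b, chr1:170976062-170976141, minus: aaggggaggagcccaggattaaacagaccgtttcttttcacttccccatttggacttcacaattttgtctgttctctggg
Over the whole window from 250 bases before to 50 after a start, GAGGAA on either strand was found in the same 5 genes and in 28.3% of all promoters. The C/EBP letters TTGCNNAA on either strand were found only in Fcgr3 among the 8 genes, and in 10.8% of all promoters. The letters CCCNNGGG, a site of the B cell factor EBF, were also found only in Fcgr3, and in 13.7% of all promoters. These matches are descriptions of the letters in this window and not binding sites.

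The first comparison asks how each gene changed with time under wild-type C/EBPα. All 4 genes of the activating machinery rose within 1 hpi, moved much less up to 18 hpi, and rose again by 120 hpi. In WT cells 6 of 7 tested genes were called at 1 hpi, where 19.9% of all 16988 genes tested were called. At 3, 6, 18 and 120 hpi all 7 were called, against 23.5%, 29.8%, 47.1% and 63.3% of all genes. Fcer2a did not pass the filter on low counts and was not tested.

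Fcgr3 encodes the low-affinity activating IgG receptor and had the highest counts of the activating receptors. In WT cells its replicates held 2.12 and 2.21 CPM (31 counts each) at 0 hpi, 40.8 and 41.6 CPM at 1 hpi, 57.5 and 56.4 CPM at 18 hpi and 943 and 932 CPM at 120 hpi. No 2 of these times overlapped. The log2 change from 0 hpi was 4.27 (SE 0.097, a 19.2-fold rise, adjusted p = 1.18e-37) at 1 hpi and 8.63 (SE 0.067, 395-fold, adjusted p = 1.25e-59) at 120 hpi. Between those times it dipped to 30.9 ± 0.544 CPM at 3 hpi and 34.9 ± 1.88 CPM at 6 hpi, and the log2 rise from 6 to 18 hpi was 0.72 (SE 0.051, adjusted p = 3.70e-17).

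Fcer1g followed the same course. Its WT replicates held 1.71 and 1.42 CPM at 0 hpi, 28.0 and 28.2 CPM at 1 hpi, 27.7 and 28.9 CPM at 18 hpi, and 619 and 573 CPM at 120 hpi. The levels at 1 and 18 hpi overlapped, so no rise was seen between them, while 0 and 120 hpi stood apart from both. The log2 change was 4.18 (SE 0.125, adjusted p = 1.71e-32) at 1 hpi and 8.43 (SE 0.077, 345-fold, adjusted p = 9.72e-57) at 120 hpi. Fcer1g is 1 of the macrophage signature genes that the study chose, so its rise is not independent of that choice.

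Fcgr1, the high-affinity IgG receptor gene, was close to silent at the start. In WT cells it had 2 and 3 counts at 0 hpi, 42 and 47 counts at 1 hpi (2.76 and 2.69 CPM), 29 and 39 counts at 18 hpi and 4923 and 4377 counts at 120 hpi (435 and 418 CPM). Against 5 counts in all at 0 hpi, the ratio of CPM was 15.6 at 1 hpi (exact 95% counting interval 6.44 to 49.2) and 2447 at 120 hpi (1048 to 7537). The rise from 18 to 120 hpi, which does not rest on the 0 hpi counts, was 7.56 on the log2 scale (SE 0.081, adjusted p = 1.38e-53). The matching step was 3.92 for Fcgr3 and 4.27 for Fcer1g.

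Fcgr4, a receptor gene for a narrower set of IgG subclasses, had no count in either WT library at 0 hpi. It had 14 and 16 counts at 1 hpi, 40 and 42 counts at 18 hpi and 807 and 762 counts (71.3 and 72.8 CPM) at 120 hpi. Taking a floor of 3 counts over the 0 hpi group, it was at least 8.76-fold higher at 1 hpi and at least 688-fold higher at 120 hpi. It rose 1.35 (SE 0.268, adjusted p = 3.80e-05) on the log2 scale from 6 to 18 hpi and 4.73 (adjusted p = 4.01e-38) from 18 to 120 hpi.

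Fcgr2b took the opposite early course in WT cells. Its replicates went from 81.1 and 82.5 CPM at 0 hpi to 58.3 and 55.9 CPM at 1 hpi and 29.0 and 26.8 CPM at 18 hpi, and then reached 955 and 987 CPM at 120 hpi. The 1 hpi change of -0.50 (SE 0.047) on the log2 scale was below 1.5-fold and not called, whereas the changes of -0.84 at 3 and 6 hpi and -1.56 (SE 0.052, adjusted p = 3.33e-31) at 18 hpi were called. The log2 rise at 120 hpi was 3.44 (SE 0.040, 10.9-fold, adjusted p = 5.16e-52). Scaling by DESeq2's size factors moved log2 changes from 0 hpi by up to 0.16 (Fcgr2b in WT cells at 120 hpi) and turned none of these directions.

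Fcrla, an intracellular Fc receptor-like protein gene of B cells, was lower than at the start at every later time. WT replicates held 42.5 and 42.3 CPM at 0 hpi, 9.19 and 9.33 CPM at 1 hpi, 1.21 and 0.694 CPM at 18 hpi, and 1.15 and 1.34 CPM at 120 hpi. The last pair overlapped the pair at 18 hpi. The log2 change was -2.17 (SE 0.088, adjusted p = 5.31e-27) at 1 hpi and -5.49 (SE 0.139, adjusted p = 2.17e-36) at 18 hpi.

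Fcrl1, which encodes a B cell surface receptor with ITAM-like motifs, fell and then rose above its start. WT replicates held 6.85 and 6.97 CPM at 0 hpi, 1.27 and 1.45 CPM at 3 hpi and 21.7 and 25.0 CPM at 120 hpi. The log2 change was -2.34 (SE 0.199, adjusted p = 1.06e-14) at 3 hpi and 1.63 (SE 0.117, adjusted p = 7.34e-18) at 120 hpi.

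Fcer2a encodes CD23, the low-affinity IgE receptor of mature B cells. It had 0 to 5 counts in every library, a median of 1.0, and 46 counts in all over the 36 libraries. At 0 hpi the 6 libraries together held 18 counts and at 120 hpi they held 3. No change in Fcer2a could be judged at this depth.

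**Figure D1:**
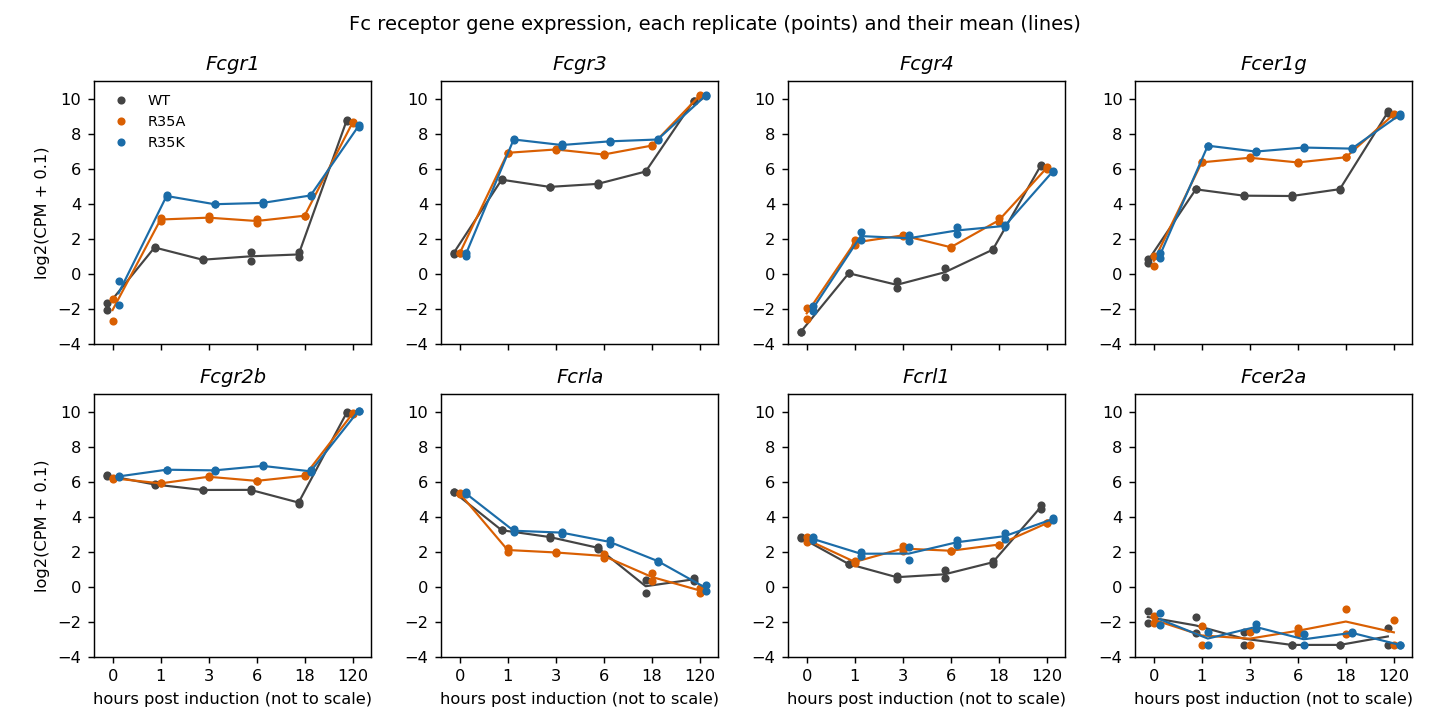
Expression of the 8 Fc receptor genes, as log2 of CPM plus 0.1 (vertical) over the 6 times from 0 to 120 hpi (horizontal, not to scale), with each replicate as a point and lines through their means, in WT (grey), R35A (orange) and R35K (blue) cells. Fcgr1, Fcgr3, Fcgr4 and Fcer1g step up at 1 hpi to levels that are lowest in WT cells and lie close together at 120 hpi, Fcgr2b is called lower before 120 hpi only in WT cells, and Fcrla falls in all.

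The same course was then read in the 2 mutants, each against its own 0 hpi. In R35A cells Fcgr3 and Fcer1g rose further within 1 hpi than in WT cells, and at the 5 times after induction, in order, the numbers of tested genes called were 6, 5, 6, 5 and 7 of 7. Over all genes the called shares were 37.3%, 36.8%, 37.7%, 42.6% and 63.1%. In R35K cells they were 6, 6, 5, 5 and 7 of 7, where 32.9%, 32.7%, 34.1%, 39.0% and 63.8% of 16434 genes were called. Fcgr1, Fcgr3, Fcgr4 and Fcer1g rose at all 5 times in both mutants, Fcrla fell at all 5 times, and Fcgr2b rose at 120 hpi. Before that Fcgr2b was not called in either mutant, but its value in R35K cells at 6 hpi, given with the R35K comparisons, lay close to the threshold.

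Fcgr3 replicates in R35A cells held 2.14 and 2.13 CPM at first, 119 and 120 CPM at 1 hpi, and 1128 and 1176 CPM at 120 hpi. In R35K cells they held 1.91 and 2.14 CPM, then 201 and 204 CPM, then 1177 and 1128 CPM. The 3 constructs overlapped at 0 hpi, separated completely at 1 hpi, and the mutants overlapped again at 120 hpi. At 1 hpi the rise was 54.9-fold in R35A cells (log2 5.78, SE 0.077, adjusted p = 2.13e-48) and 96.3-fold in R35K cells (log2 6.59, SE 0.074, adjusted p = 2.42e-37).

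Fcer1g replicates in R35A cells held 1.27 and 1.91 CPM at 0 hpi, 82.2 and 81.8 CPM at 1 hpi, and 538 and 563 CPM at 120 hpi. In R35K cells they held 1.80 and 2.14 CPM, then 158 CPM in both, then 566 and 513 CPM. As for Fcgr3, the order at 1 hpi was WT, R35A, R35K with no overlap, and at 120 hpi the mutants overlapped. At 1 hpi the rise was 49.2-fold in R35A cells (adjusted p = 3.03e-44) and 77.6-fold in R35K cells (adjusted p = 3.77e-35).

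Fcgr1 and Fcgr4 showed this order at lower levels. Fcgr1 held 2.72 ± 0.047 CPM in WT, 8.46 ± 0.850 in R35A and 21.6 ± 1.79 in R35K cells at 1 hpi. Fcgr4 held 0.917 ± 0.002, 3.36 ± 0.532 and 4.38 ± 0.910 CPM, and here the replicates of the mutants met, with 3.73 CPM as the higher R35A value and the lower R35K value. At 120 hpi Fcgr1 stood in the reverse order, with 427 ± 12.1 CPM in WT, 397 ± 12.3 in R35A and 346 ± 14.8 in R35K cells, and Fcgr4 did so as well, with 72.0 ± 1.03, 65.9 ± 4.45 and 57.0 ± 0.806 CPM. R35K libraries come from a count table of their own, so that, in levels set side by side, the construct and the table cannot be told apart.

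Each gene's level can be set against its own level at 120 hpi in the same construct. At 1 hpi Fcer1g was at 4.72% of it in WT, 14.9% in R35A and 29.4% in R35K cells, and Fcgr3 at 4.39%, 10.4% and 17.6%. Fcgr1 was much further from its later level, at 0.638%, 2.13% and 6.24%, and Fcgr4 lay between, at 1.27%, 5.10% and 7.68%. In both mutants the chain shared by the activating receptors was at 1 hpi nearer its 120 hpi level than the receptor genes it serves.

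**Figure D2:**
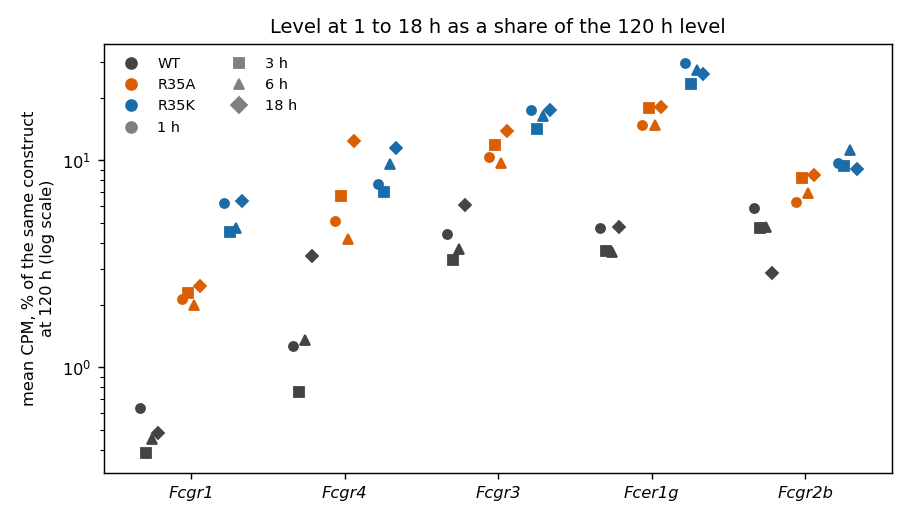
Mean CPM at 1, 3, 6 and 18 hpi as a percent of the same construct's level at 120 hpi (log axis), for 5 genes in WT (grey), R35A (orange) and R35K (blue) cells, with the time shown by the symbol. Fcgr1 in WT cells lies lowest, from 0.384% to 0.638%, and Fcer1g in R35K cells highest, from 23.3% to 29.4%.

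The next comparison asks whether R35A cells differed from WT cells at the same time. At 0 hpi edgeR called 0 of 7 tested genes and 0 of 16988 genes in all, 2 of the 7 (Fcgr2b, log2 difference -0.16, adjusted p = 0.162, and Fcgr4, with 4 counts in all in R35A and 0 in WT cells) had an unadjusted p under 0.05, and DESeq2 called 0. At the 5 later times, in order, 5, 7, 5, 6 and 1 of the 7 genes were called, against 19.3%, 17.0%, 13.7%, 10.1% and 18.8% of all genes.

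The activating genes were higher in R35A cells at each of 1, 3, 6 and 18 hpi. The log2 difference for Fcgr3 was 2.12 at 3 hpi (SE 0.047, adjusted p = 4.61e-38), and the levels were 2.82, 4.34 and 2.77 times those of WT cells at 1, 3 and 18 hpi (log2 1.68 at 6 hpi). For Fcer1g they were 2.83 (adjusted p = 3.07e-29), 4.43, 3.80 and 3.51 times as high at the 4 times. On the log2 scale, Fcgr1 gave 1.59 (SE 0.150, adjusted p = 3.83e-13), 2.45, 2.03 and 2.23, and Fcgr4 gave 1.82 (SE 0.248, adjusted p = 1.50e-08), 2.99, 1.48 and 1.69. At 120 hpi the differences were 0.31 for Fcgr3, -0.10 for Fcer1g, -0.10 for Fcgr1 and -0.12 for Fcgr4, each below 1.5-fold. Macrophage markers were higher in R35A cells at 1 hpi, with 3767 CPM against 868 CPM in WT cells. They were also higher at 120 hpi, with 31384 against 21093 CPM. Fibroblast markers summed to 2115 CPM in WT and 2347 CPM in R35A cells at 1 hpi. They were then lower in R35A cells, with 2036 against 2497 CPM at 3 hpi and 2054 against 2563 CPM at 6 hpi. At 18 hpi the sums were 1969 against 2604 CPM, but at 120 hpi R35A cells were higher, with 408 against 120 CPM. The part of either marker list in these differences was not tested.

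Fcgr2b did not differ by 1.5-fold at 1 hpi, where the log2 difference was 0.02 (SE 0.047). It was higher in R35A cells by 0.73 at 3 hpi (SE 0.048, adjusted p = 1.25e-18) and by 1.52 at 18 hpi (SE 0.051, adjusted p = 3.07e-30), as it fell in WT cells to 29.0 and 26.8 CPM and stayed at 82.1 and 79.2 CPM in R35A cells. At 120 hpi the difference was -0.03 (SE 0.034). For Fcrl1 the same comparison gave a difference of 0.09 at 1 hpi, 1.68 (SE 0.216, adjusted p = 4.15e-09) at 3 hpi and 1.02 at 18 hpi, but at 120 hpi it was lower in R35A cells, by -0.92 (SE 0.108, adjusted p = 3.01e-10). The R35A replicates then held 12.4 and 12.1 CPM, against 21.7 and 25.0 CPM in WT cells.

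Fcrla went the other way at first. At 1 hpi R35A replicates held 3.90 and 4.47 CPM and WT replicates 9.19 and 9.33 CPM, a log2 difference of -1.19 (SE 0.134, adjusted p = 9.21e-11). At 3 hpi it was -0.92 (SE 0.150, adjusted p = 8.32e-07), and at 6, 18 and 120 hpi it was -0.46, 0.58 and -0.69 and was not called. So at 3 hpi Fcrla was lower in R35A than in WT cells, while Fcgr2b and Fcrl1 were higher.

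Measured as a difference between the 2 changes from 0 hpi, the called differences of the well-counted genes kept their direction. Here 3, 6, 4, 4 and 1 of 7 genes were called at the 5 later times, in order, against 14.0%, 13.0%, 10.3%, 8.36% and 14.5% of all genes. For Fcgr2b at 6 hpi the difference between changes was 0.67 and called, while the difference at the same time was 0.52 and not called. At 120 hpi its 2 values were 0.13 and -0.03, neither called. The values for Fcgr1 and Fcgr4 rest on 0 to 4 counts per library at 0 hpi, and the call for Fcgr1 at 3 hpi (log2 2.67, SE 0.891, adjusted p = 0.0251) was lost without WT 0 hpi replicate 1 (2.94, adjusted p = 0.0576), WT 0 hpi replicate 2 (2.34, adjusted p = 0.234) or R35A 0 hpi replicate 2 (1.84, adjusted p = 0.180).

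The 2 mutants were then compared with WT cells and with each other through their changes from 0 hpi, in a fit over all 36 libraries. R35K minus WT gave 3, 4, 4, 6 and 2 called genes of 7 at the 5 later times, in order, where 11.9%, 10.0%, 12.2%, 13.3% and 10.1% of 17277 genes were called. R35K minus R35A gave 3, 1, 3, 1 and 0, where 5.83%, 3.02%, 5.89%, 3.44% and 1.61% were called. At 120 hpi the last comparison had 1 gene (Fcgr1) with an unadjusted p under 0.05, and DESeq2 called 0.

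Of these, 2 calls rest on the few counts at 0 hpi. Fcgr1 in R35K minus WT at 18 hpi (log2 2.17, adjusted p = 0.0472) was lost in 15 of 36 leave-outs of 1 library, with the difference at 1.59 without R35K 0 hpi replicate 2 (adjusted p = 0.189) and 1.84 without WT 0 hpi replicate 2 (adjusted p = 0.339). Fcgr4 at 120 hpi (adjusted p = 0.0303), where WT cells had no count at 0 hpi and the fitted value is no bound, was lost without WT 0 hpi replicate 1 (adjusted p = 0.140), WT 0 hpi replicate 2 (adjusted p = 0.130) or R35K 0 hpi replicate 1 (adjusted p = 0.111).

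For Fcgr3 the R35K rise exceeded the WT rise by 2.40 (SE 0.195, adjusted p = 2.46e-15) on the log2 scale at 1 hpi and by 1.93 at 18 hpi. It exceeded the R35A rise by 0.84 (SE 0.178, adjusted p = 0.00532) at 1 hpi and by 0.83 (SE 0.178, adjusted p = 0.00575) at 6 hpi. The call at 1 hpi was lost without R35A 0 hpi replicate 2 (adjusted p = 0.0503) or R35K 0 hpi replicate 1 (adjusted p = 0.0559), and that at 6 hpi without the same libraries (adjusted p = 0.0531 and 0.0574), with the log2 differences at 0.75 to 0.85. For Fcer1g the difference from R35A was 0.68 (SE 0.226) at 1 hpi and just missed the threshold (adjusted p = 0.0509), and without R35A 0 hpi replicate 1 it was 0.92 (adjusted p = 0.0238). Macrophage markers were highest in R35K cells at 1 hpi, at 8149 CPM (868 in WT and 3767 in R35A cells). At 120 hpi they summed to 28545 CPM in R35K, 31384 in R35A and 21093 in WT cells. Fibroblast markers were lower in R35K than in WT cells up to 18 hpi, with 1911 against 2115 CPM at 1 hpi and 1450 against 2604 CPM at 18 hpi. At 120 hpi they were higher in R35K cells, with 324 against 120 CPM. The part of these markers in the differences was not tested.

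In R35K cells Fcgr2b went from 77.5 and 79.6 CPM at 0 hpi to 102.4 and 102.6 CPM at 1 hpi and 117 and 122 CPM at 6 hpi, a log2 change of 0.54 (SE 0.045) that was under 1.5-fold and not called. It was called with DESeq2's size factors (0.62) and without either R35K 120 hpi replicate (0.59 each). Against WT its change was higher by 0.90 at 1 hpi and by 1.85 (SE 0.069, adjusted p = 1.45e-29) at 18 hpi. Against R35A it was higher by 0.68 (SE 0.064, adjusted p = 1.37e-12) at 1 hpi and 0.75 (SE 0.063, adjusted p = 2.96e-14) at 6 hpi, while at 3 and 18 hpi the differences of 0.26 and 0.15 were below 1.5-fold. At 120 hpi the change in R35K cells differed from that in WT cells by 0.19 and from that in R35A cells by 0.06, and neither was called.

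Fcrla separated the mutants in another way. In R35K cells it held 9.63 and 8.55 CPM at 1 hpi, which lie around the WT values and above both R35A values. The R35K fall differed from the WT fall by 0.04 (SE 0.133) at 1 hpi and was smaller than the R35A fall by 1.11 (SE 0.150, adjusted p = 4.44e-08) at 1 hpi and by 1.15 (SE 0.154, adjusted p = 7.86e-08) at 3 hpi. At 18 hpi R35K replicates still held 2.71 and 2.61 CPM, above all WT and R35A replicates, and the change differed from WT by 1.57 (SE 0.266, adjusted p = 2.72e-06). The 18 hpi difference from R35A of 0.89 (adjusted p = 0.00603) was lost without R35A 18 hpi replicate 1 (0.69, adjusted p = 0.119) or R35K 18 hpi replicate 1 (0.87, adjusted p = 0.0525). The construct with the highest activating receptor genes at 1 hpi was thus not the one with the lowest Fcrla. Summed B cell markers at 1 hpi were also lowest in R35A cells, at 603 CPM, but they were 1071 CPM in R35K and 1914 CPM in WT cells, which Fcrla did not separate. The part of these markers' change in the values of Fcrla was not tested.

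Fcrl1 changed by a higher value in R35K than in WT cells, by 1.57 (SE 0.285, adjusted p = 1.22e-05) at 3 hpi and 1.95 (SE 0.272, adjusted p = 3.79e-08) at 6 hpi. At 120 hpi its rise was smaller by -0.62 (SE 0.194, adjusted p = 0.0133). This last call was lost without WT 120 hpi replicate 2 (-0.51, adjusted p = 0.0713), R35K 0 hpi replicate 1 (-0.52, adjusted p = 0.102) or R35K 120 hpi replicate 1 (-0.56, under 1.5-fold). R35K and R35A did not differ past the threshold in Fcrl1 at any time, with differences from -0.22 to 0.47 (SE 0.199 to 0.261).

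**Figure D3:**
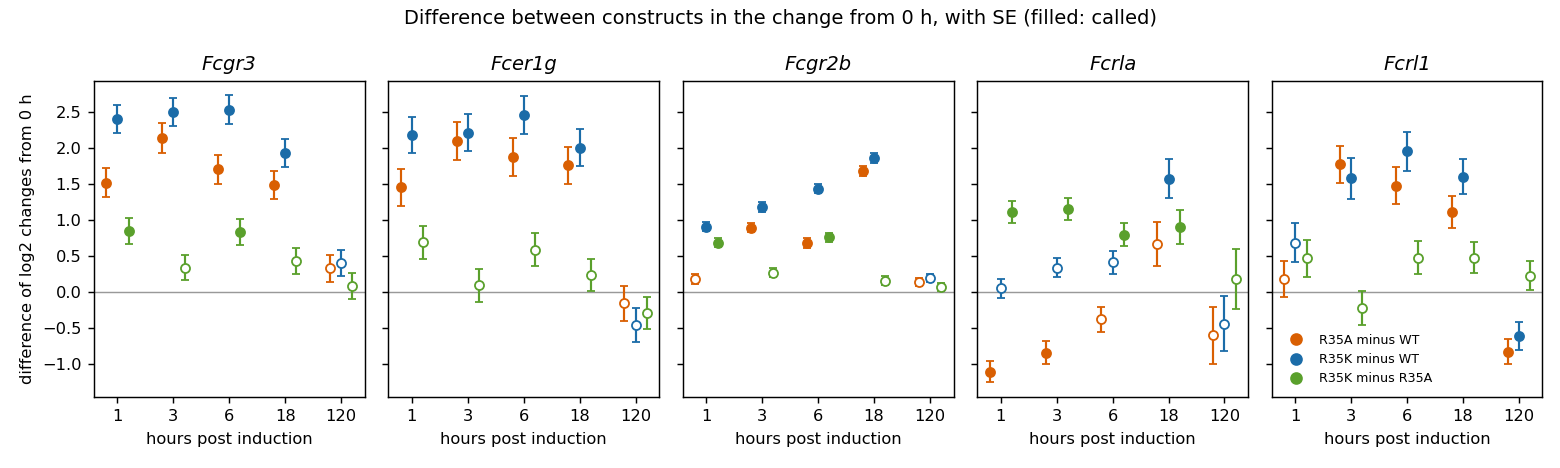
Difference between 2 constructs in the log2 change from 0 hpi, with its SE, at the 5 times after 0 hpi for 5 genes: R35A minus WT (orange), R35K minus WT (blue) and R35K minus R35A (green), filled where called. Fcgr3 and Fcer1g lie between 1.45 and 2.53 in both mutants against WT up to 18 hpi, and Fcrla at 1 hpi lies at -1.11 for R35A and 0.04 for R35K.

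The balance between inhibitory and activating receptor genes was described as the Fcgr2b share of the summed level of Fcgr1, Fcgr2b, Fcgr3 and Fcgr4, in CPM per kilobase of exon. At 0 hpi it was 91.5% ± 0.226 in WT, 90.1% ± 0.081 in R35A and 90.4% ± 0.496 in R35K cells. At 1 hpi it was 27.9% ± 0.845 in WT cells but 12.1% ± 0.117 in R35A and 12.1% ± 0.086 in R35K cells. At 18 hpi the shares were 11.9% ± 0.479, 12.0% ± 0.413 and 11.3% ± 0.427, and the WT replicates overlapped those of either mutant. At 120 hpi they were 18.0% ± 0.517, 15.8% ± 0.047 and 17.8% ± 0.566. With 2 libraries a group, no test of these shares is given. They depend on the exon lengths used, 5790 bases for Fcgr2b against 2589 for Fcgr1, 1736 for Fcgr3 and 1256 for Fcgr4. In CPM without this division, Fcgr2b held 971 and Fcgr3 937 in WT cells at 120 hpi. Splice forms were not separated, and other lengths were not tested.

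The share fell in different ways. In WT cells Fcgr2b went from 14.1 to 9.87 CPM per kb between 0 and 1 hpi while the activating genes together went from 1.31 to 25.5. In R35K cells Fcgr2b went from 13.6 to 17.7 CPM per kb and the activating genes from 1.45 to 129. Fcgr3 made up most of the activating part at every time, with 58.1% of the summed level in WT and 64.7% in R35K cells at 120 hpi. Fcgr1 took 0.437% of it in WT cells at 0 hpi and 17.7% at 120 hpi.

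Fcer1g, whose product the activating receptors need at the cell surface, was set against them per kilobase. Its level was 1.37 ± 0.235 times the summed activating level in WT cells at 0 hpi, then 1.26 ± 0.011 by 1 hpi and 0.894 ± 0.039 by 120 hpi. For R35A the ratio went from 1.25 ± 0.015 at 1 hpi to 0.725 ± 0.0002 at 120 hpi, and in R35K cells from 1.41 ± 0.013 to 0.732 ± 0.030. In each construct it was lower at 120 hpi than at 1 hpi in both replicates.

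**Figure D4:**
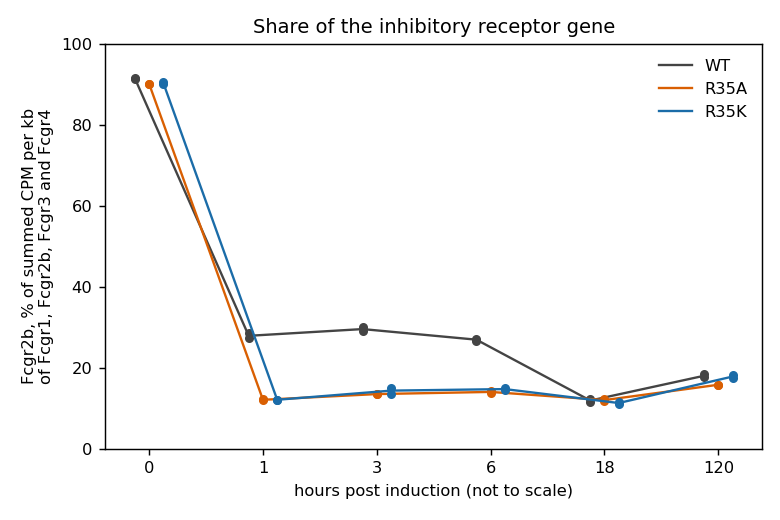
Fcgr2b as a percent of the summed CPM per kb of Fcgr1, Fcgr2b, Fcgr3 and Fcgr4 (vertical, from 0 to 100) at 0 to 120 hpi (horizontal, not to scale), with each replicate as a point and lines through the means, in WT (grey), R35A (orange) and R35K (blue) cells. All start at 90.1% to 91.5%, and at 1 hpi WT cells are at 27.9% and both mutants at 12.1%. These percentages depend on the exon lengths used.

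Ordered by level over the 18 groups, Fcgr3 had 12 of 17 neighbouring groups apart in both replicates, Fcer1g and Fcgr4 11, Fcgr1 and Fcgr2b 10, Fcrla 9 and Fcrl1 7. For Fcer2a it was 0 of 17. For Fcer1g the 3 groups at 120 hpi came first, then R35K at 1 to 18 hpi, R35A at 1 to 18 hpi, WT at 1 to 18 hpi and the 0 hpi groups. R35A and R35K at 120 hpi, R35A at 1 and 6 hpi, WT at 1 and 18 hpi, WT at 3 and 6 hpi, and the 0 hpi groups were neighbours that overlapped.

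The genes with the most similar course were named by Pearson's r over the 18 group means of log2 CPM, among 17277 genes. All these means come from the same libraries, so r is a description. For Fcgr3 they were Nfam1 (0.998), the ITAM adaptor gene Tyrobp (0.997) and Fcer1g (0.997), and for Fcer1g they were Tlr13 (0.999), Tyrobp (0.998) and Fyb (0.998). For Fcgr1 they were Naip5 (0.997), Lrpap1 and Paqr7 (both 0.996), for Fcgr4 Adam8 (0.993), Alox5ap and Cers2 (both 0.991), and for Fcgr2b Nrros (0.994), Mfsd13a (0.993) and Epsti1 (0.992). For Fcrla they were Gimap4 (0.988), Igkj1 (0.987) and Clec4f (0.985). Fcrl1 had no neighbour above 0.953 (Pold4), followed by Abi1 (0.941) and Cd180 (0.940). Among the receptor genes themselves r was 0.955 for Fcgr1 and Fcgr3, 0.625 for Fcgr2b and Fcgr3, and -0.860 for Fcgr3 and Fcrla.

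For the other genes of Fc receptor signalling, the counts stand beside the shares called over all genes, which in WT cells were 10.7% higher and 9.27% lower at 1 hpi, and 23.1% higher and 40.2% lower at 120 hpi. Of 5 ITAM adaptors, 1 rose and 3 fell in WT cells at 1 hpi (median log2 change -0.81, against -0.01 over all genes), and 2 rose and 3 fell at 120 hpi (median -2.68, against -0.36). Tyrobp, which encodes the myeloid adaptor DAP12, rose from 3.04 to 1679 CPM in WT cells by 120 hpi (log2 8.98, SE 0.063, adjusted p = 1.59e-61). Cd79a and Cd79b, which carry the ITAMs of the B cell receptor, fell by 2.93 and 2.89 on the log2 scale.

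Of 22 kinases, adaptors and effectors below the activating receptors, 4 rose and 6 fell at 1 hpi in WT cells (median -0.07), and 14 rose and 3 fell at 120 hpi (median 0.95, against -0.36 over all genes). In R35A cells 5 rose and 8 fell at 1 hpi (18.3% and 18.9% of all genes), and in R35K cells 6 rose and 7 fell (15.5% and 17.4%). Syk, the kinase recruited to the ITAM, was at 487 CPM in WT cells at 0 hpi, then 325 CPM by 1 hpi and 709 CPM by 120 hpi, and neither change reached 1.5-fold. In R35A cells it fell by 0.88 on the log2 scale at 1 hpi (adjusted p = 1.47e-28). Prkcd, a kinase of the phagocytic response, rose by 2.25 on the log2 scale at 120 hpi (SE 0.037, adjusted p = 2.22e-45).

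Of 10 phosphatases and other brakes, none rose and 2 fell in WT cells at 1 hpi (median -0.18). At 120 hpi 4 rose and 1 fell (median -0.10, against -0.36 over all genes). Over all genes tested there, 23.1% rose and 40.2% fell, so 63.3% were called in either direction. Inpp5d, which encodes the SHIP phosphatase that works with the Fcgr2b product, fell at 1 hpi by 1.34 on the log2 scale in R35A cells (SE 0.037, adjusted p = 4.72e-35) and by 0.72 in R35K cells (SE 0.037, adjusted p = 3.32e-18). In WT cells its change was -0.33, under 1.5-fold. Of 5 membrane partners on B cells, 3 fell at 1 hpi and 5 at 120 hpi in WT cells (median at 120 hpi -5.38).

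Of 11 other Fc receptor genes, 8 were tested in WT cells, where 2 rose and 1 fell at 1 hpi (median 0.78, against -0.01 over all genes, of which 19.9% were called), and 3 rose and 4 fell at 120 hpi (median -2.66, against -0.36 and 63.3%). Fcgrt, the neonatal Fc receptor gene that protects IgG from breakdown, went from 8.48 to 96.9 CPM in WT cells by 120 hpi (log2 3.39, SE 0.084, adjusted p = 1.98e-37). Fcrls, a secreted Fc receptor-like gene, was at 1.39 CPM in WT, 16.4 in R35A and 84.3 in R35K cells at 1 hpi, from 0.316, 0.120 and 0.268 CPM at 0 hpi. Its log2 rise at 1 hpi was 2.13 (SE 0.411) in WT, 6.99 (SE 0.250) in R35A and 8.19 (SE 0.137) in R35K cells, all called. Fcer1a and Ms4a2, which pair with Fcer1g in the IgE receptor of mast cells, stayed low: Fcer1a was at 0 in 35 of 36 libraries.

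Markers of other cells that carry Fc receptors gave the following values. Granulocyte markers (7 genes, Ly6g and Elane among them) summed to 37.6 to 48.4 CPM at 0 hpi and 1.77 to 10.8 CPM later, and Ly6g was at 0 in 13 libraries. NK cell markers (5 genes) summed to at most 2.60 CPM in any library, with Ncr1 at 0 in 35 of 36. Mast cell and basophil markers (8 genes) were higher at 1 hpi than at 0 hpi, at 16.7 against 9.26 CPM in WT, 31.0 against 9.53 in R35A and 24.1 against 9.40 in R35K cells, and summed to 6.17 to 8.04 CPM in the 3 constructs at 120 hpi. Mcpt8 made up 15.6, 30.2 and 23.2 CPM of the sums at 1 hpi, while Fcer1a was at 0 in each construct then and Cpa3 was at 0 in 21 libraries. Their part in the values of the activating receptor genes was not tested.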

How the data were processed

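RNA-seq counts per gene were deposited by the authors in 2 tables, 1 for WT and R35A and 1 for R35K, beside tables of log2 normalized values. Per the submitters' processing notes and the study's methods, 50-base single-end reads of stranded poly(A) libraries were checked with FastQC, aligned to mm10 with STAR 2.5.0a and normalized with DESeq2 1.14.1. The annotation release and strand setting are not given in the sources used here. The deposited log2 values were recovered from the counts for 100% of genes and were not tested. All columns were used (0 left out). Totals per library ranged from 13044456 to 23131776 counts.

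Counts were analysed in R 4.3.3 with edgeR 4.0.16 (limma 3.58.1): filterByExpr, TMM, glmQLFit and glmQLFTest, with Benjamini-Hochberg adjustment over all genes tested, a fold of at least 1.5 and an adjusted p of at most 0.05. WT and R35A libraries shared a fit over 16988 genes, R35K libraries were fitted alone over 16434, and R35K was compared with the others through changes from 0 hpi in a fit of all 36 libraries over 17277 genes. The procedure was tested on simulated data. Counting intervals are exact at 95% and, like the floor of 3 counts over a group, cover counting error only. Levels per kilobase use the union of exons.

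The 8 genes were named in each comparison, with the 3 genes most correlated with each and at most 4 genes of highest mean CPM from each pathway list. The genes and lists were chosen with earlier results of these data known. Alternatives were DESeq2 1.42.0, edgeR with the size factors of DESeq2, testing all genes, a minimum of 10 counts in both libraries of a group, the replicate number as a block, other sets of libraries, unadjusted p, a 2-fold threshold and leaving out each library. Promoters were taken from RefSeq (GRCm38.p6) by symbol, and all 8 genes matched. The values of 2 genes in the pathway and marker lists are not reported here.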

Additional observations from a re-analysis of the deposited data

Results flagged for a closer look

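The constructs differed past the threshold in their change from 0 hpi in 18 of 35 tests for R35A minus WT, 19 of 35 for R35K minus WT and 8 of 35 for R35K minus R35A, each of the difference itself by edgeR. Over all genes the shares called at one time lay between 8.36% and 14.5%, between 10.0% and 13.3% and between 1.61% and 5.89%. All values are differences between log2 changes.

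For Fcgr3, R35A exceeded WT by 1.51, 2.13, 1.70 and 1.48 at 1, 3, 6 and 18 hpi, and R35K exceeded WT by 2.40, 2.49, 2.53 and 1.93. R35K exceeded R35A by 0.84 at 1 hpi and 0.83 at 6 hpi. For Fcer1g, R35A exceeded WT by 1.45, 2.09, 1.87 and 1.75 at those 4 times, and R35K exceeded WT by 2.18, 2.21, 2.45 and 1.997. For Fcgr1 the difference was 2.67 between R35A and WT at 3 hpi and 2.17 between R35K and WT at 18 hpi. For Fcgr4 it was -4.68 between R35K and WT at 120 hpi, a fitted value against a group with no count.

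For Fcgr2b, R35A exceeded WT by 0.89, 0.67 and 1.68 at 3, 6 and 18 hpi. R35K exceeded WT by 0.90, 1.18, 1.43 and 1.85 at 1, 3, 6 and 18 hpi, and R35A by 0.68 at 1 hpi and 0.75 at 6 hpi.

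For Fcrla the difference between R35A and WT was -1.11 at 1 hpi and -0.84 at 3 hpi, and that between R35K and WT was 1.57 at 18 hpi. R35K and R35A differed by 1.11, 1.15, 0.79 and 0.89 at 1, 3, 6 and 18 hpi. For Fcrl1, R35A exceeded WT by 1.77, 1.47 and 1.11 at 3, 6 and 18 hpi and was lower by -0.83 at 120 hpi, and R35K exceeded WT by 1.57, 1.95 and 1.59 and was lower by -0.62.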

How the results depend on the processing

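Leaving out 1 library at a time, the number of called tests over the 7 genes stayed at 34 in WT cells (of 35), lay between 28 and 30 in R35A cells (29 with all libraries) and between 28 and 30 in R35K cells (29), and between 17 and 21 for R35A minus WT (18), 24 and 25 for R35A against WT at the same time (24 of 42), 17 and 21 for R35K minus WT (19), 6 and 10 for R35K minus R35A (8) and 30 and 34 for steps between neighbouring times (33 of 84). Over all genes, the share called in a step was lowest at 0.177% (R35A cells, 3 to 6 hpi). In the steps from 18 to 120 hpi it was 60.5% in WT, 53.9% in R35A and 53.3% in R35K cells. With a 2-fold threshold the count for R35K minus R35A was 2, since a higher fold is asked. Leaving out a library turned signs of uncalled values alone, such as Fcgr1 in R35K minus R35A at 18 hpi (from -1.65 to 0.83). Under the other alternatives, signs were compared for changes from 0 hpi at 1 and 120 hpi and for R35A against WT at 1, 18 and 120 hpi. They were also compared for the changes in R35A minus WT and R35K minus R35A at 1 hpi. Among these, 2 signs turned, both of uncalled values. Fcgr2b in R35A against WT at 120 hpi was 0.014 with no low-count filter, and Fcgr4 in R35K minus R35A at 1 hpi was -0.0198 with DESeq2. The cause was not tested. Over 8259 genes and 153 pairs of groups, deviations of same-numbered samples correlated with a median r of -0.008 (from -0.58 to 0.38). In 27 of these pairs r was above 0.1. Replicate numbers may be assigned differently in each group, so this median cannot tell whether replicates were paired. With the replicate number as a block the counts were 34, 29, 29, 18, 24, 20, 9 and 33 in the order above. Depth limits Fcer2a throughout and Fcgr1 and Fcgr4 at 0 hpi.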
